A study of Mus musculus with 9 samples.

Results

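The genes described here are 35 genes of G2/M and mitosis, taken by name from the count table: genes of mitotic entry, the spindle checkpoint, the kinetochore, the spindle and cytokinesis. They were found as 35 of the 58735 rows of the table, and all 35 were among the 15492 genes with enough counts to be tested. The cells were Caki, an established human line from a clear cell carcinoma of the kidney, and all 3 groups had received a retroviral vector, were selected with G418 at 200 to 400 µg/ml and were grown in serum-containing medium. The labels do not say whether a group was a single clone or a pool of cells. MX cells carried the empty vector, YAP1 cells carried wild-type YAP1, and YAP1-S127A cells carried YAP1 with alanine in place of serine 127, the site through which LATS kinases hold the protein in the cytoplasm. Each group had 3 RNA libraries, and the labels do not say whether these came from separate cultures. Every p-value therefore rests on the spread of libraries within groups, and that spread may be only technical.

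Passage through mitosis is driven by CDK1 bound to B-type cyclins and is ended when the anaphase-promoting complex, a ubiquitin ligase, destroys the cyclins and securin. The spindle checkpoint holds that ligase back until every kinetochore is attached to microtubules. Most of these genes are transcribed late in the cell cycle through the MuvB complex with MYBL2 and FOXM1, so that in a growing culture their transcripts come mainly from cells in G2 and mitosis. YAP1 is a coactivator of TEAD factors and is known for driving proliferation genes in many epithelial cells.

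Levels are in CPM, library counts scaled to a common total by TMM, and levels of different genes are compared per kilobase of the deposited gene length. A gene is called, that is said to have risen or fallen, where edgeR's quasi-likelihood test gave a Benjamini-Hochberg adjusted p under 0.05 over all 15492 genes. Of the 35 genes 1, the checkpoint gene MAD2L1, rose with YAP1, where 6.81% of all tested genes were called. With YAP1-S127A, MAD2L1 rose as well, together with the cytokinesis genes ANLN and BIRC5, by 1.34-fold to 1.55-fold, where 18.4% of all tested genes were called. No gene of the set was called lower, and none was called between YAP1-S127A and YAP1, where 1.97% of all tested genes were. For 29 to 33 of the 35 genes, depending on the comparison, the 95% interval of the fold change lay inside 1.5-fold either way. This held for 45.5% to 57.9% of all tested genes, which here and below were not matched to the 35 for level.

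Libraries held 15789722 to 24811150 counts, so that 3 counts stand for 0.121 to 0.190 CPM. The YAP1 transcript stood at 99.9 ± 8.64 CPM (SD, n = 3) in MX cells, at 1220 ± 268 CPM in cells with added YAP1 and at 688 ± 55.0 CPM in YAP1-S127A cells. Mitochondrial transcripts took 1.896 to 6.60% of the counts in MX, 3.50 to 11.4% with YAP1 and 7.40 to 29.6% with YAP1-S127A, where replicates 1 and 3 were highest. Of the kidney markers PAX8 was at 228 to 312 CPM in every library, while LRP2 and PAX2 were at 0.170 CPM or below and CA9, a marker of most clear cell carcinomas, at 0.933 CPM or below. Of the 10 tested kidney markers 4 fell with YAP1 (median log2 fold change -0.35), and 5 fell and 1 rose with YAP1-S127A (median -0.53). Of all tested genes 6.81% and 18.4% were called in these comparisons against MX. Summed leukocyte markers stayed at or below 2.30 CPM and summed endothelial markers at or below 1.78 CPM. The 7 fibroblast and stroma markers summed to 774 to 1308 CPM in MX, 1337 to 1689 CPM with YAP1 and 2146 to 3953 CPM with YAP1-S127A, and most of this was COL1A1. With YAP1-S127A 4 of the 5 tested stroma markers rose against MX, beside 9.53% of all tested genes called higher. PDGFRA and THY1 were at or below 0.570 CPM in every library. The part of mitochondrial share and of these markers in the results on mitosis genes was not tested, beyond the fit with mitochondrial share given below. In RNA from a whole culture, fewer cells in G2 and mitosis and less transcript per such cell cannot be told apart.

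The set was well expressed. The median level over the 9 libraries was 9.96 CPM per kilobase, 34 of 35 genes were at 1 CPM per kilobase or more, and 17 were at 10 or more. UBE2C, the ubiquitin-conjugating enzyme of the anaphase-promoting complex, was highest at 45.9 CPM per kilobase, followed by BIRC5 (survivin, 45.4), the complex's activator CDC20 (44.7) and cyclin B1 (CCNB1, 43.9). Securin, PTTG1, was at 37.4 CPM per kilobase and the spindle assembly factor TPX2 at 25.3 CPM per kilobase. At the low end were the kinesin CENPE at 2.07, the microtubule-bundling gene NUSAP1 at 1.18 and the midzone gene PRC1 at 0.105 CPM per kilobase. PRC1 had 106 counts in all 9 libraries together, and a second protein-coding row on the same strand and overlapping it, AC068831.7, had 273. NUSAP1 also overlaps a protein-coding row on the same strand, AC087721.2, which had 0 counts. How reads were divided between such rows cannot be checked here.

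**Figure D1:**
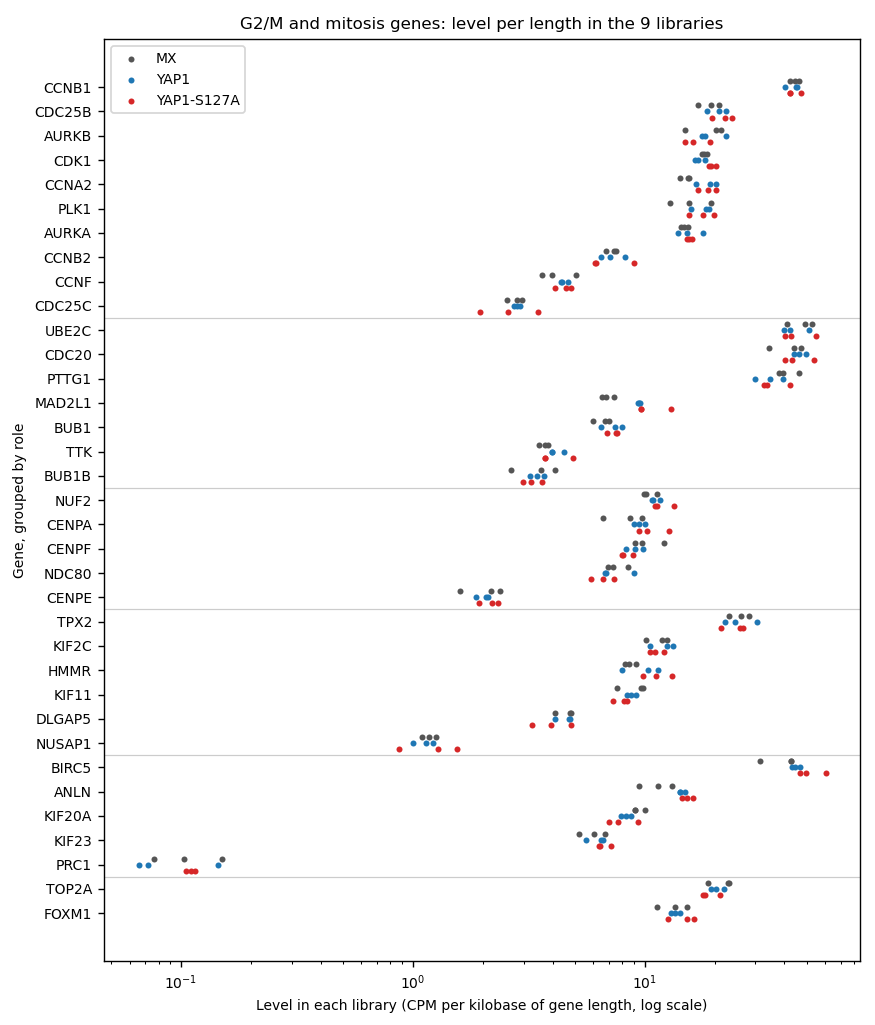
Level of each of the 35 genes in each of the 9 libraries, in CPM per kilobase of gene length on a log axis, with genes grouped by role and 1 point per library coloured by group. UBE2C, BIRC5, CDC20 and CCNB1 lie between 30 and 65 CPM per kilobase, PRC1 lies near 0.1, and for most genes the points of the 3 groups are mixed.

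The genes also varied little among libraries. The coefficient of variation over the 9 libraries had a median of 12.4% for the 35 genes, against 16.7% for all tested genes. The 35 genes and all tested genes were not matched for level, and the part of level in this difference was not tested. For 20 of 35 genes the highest library was at most 1.5 times the lowest, and for 34 of 35 at most 2 times, the exception being PRC1 at 2.28 times. CCNB1 was the steadiest, with a coefficient of variation of 5.20% and a ratio of highest to lowest library of 1.17. CDK1, the kinase that cyclin B1 activates, followed at 6.44%. MAD2L1 had a ratio of 1.97 and a coefficient of variation of 21.6%.

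In the mitotic entry group of 10 genes (CCNA2, CCNB1, CCNB2, CCNF, CDK1, CDC25B, CDC25C, PLK1, AURKA and AURKB), none was called in any comparison. CCNB1 (ENSG00000134057, chromosome 5, 69167010 to 69178245, plus strand) had the highest level per kilobase of the group. Its levels were 108, 118 and 114 CPM in MX replicates 1 to 3, 115, 116 and 103 CPM with YAP1, and 108, 120.3 and 108 CPM with YAP1-S127A. The 3 groups overlapped. Its fold change was 0.982 with YAP1 against MX (95% interval 0.839 to 1.15) and 0.991 with YAP1-S127A against MX (0.846 to 1.16), and between the constructs it was 1.01 (0.861 to 1.18). CDK1 was singled out after its values were seen. It was at 71.1, 72.8 and 69.4 CPM in MX, 64.5, 71.6 and 66.5 CPM with YAP1 and 75.5, 74.5 and 79.6 CPM with YAP1-S127A. The YAP1-S127A libraries of CDK1 lay above all others, but its log2 fold change of 0.11 against MX was small and not called (adjusted p = 0.534, edgeR's quasi-likelihood test).

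Cyclin A2 (CCNA2), which partners CDK2 and CDK1 from S phase to early mitosis, was singled out after its values were seen. It was at 43.6, 39.7 and 42.8 CPM in MX, 46.7, 53.4 and 57.0 CPM with YAP1 and 52.4, 56.7 and 47.3 CPM with YAP1-S127A. All 6 libraries with a construct lay above all 3 MX libraries. The share of all tested genes with this order was not counted, here and for the genes below. The log2 fold change was 0.32 with YAP1 and 0.31 with YAP1-S127A, and neither passed edgeR's quasi-likelihood test after Benjamini-Hochberg adjustment (adjusted p = 0.119 and 0.0743). The kinases PLK1, AURKA and AURKB, which act on centrosomes, spindle and centromeres, had log2 fold changes of 0.15, 0.07 and 0.05 with YAP1. With YAP1-S127A these were 0.16, 0.07 and -0.16, and none of the 3 kinases was called. The phosphatases that switch CDK1 on, CDC25B and CDC25C, had log2 fold changes of 0.20 and -0.06 with YAP1-S127A against MX. Cyclin B2 (CCNB2) and cyclin F (CCNF, a ubiquitin ligase subunit) were within 0.10 of 0 in all 3 comparisons on that scale. On the opposite strand CCNA2 overlaps EXOSC9 (5357 counts against 8628) and CDC25C overlaps FAM53C (9286 against 1654). The part of these overlaps in the values of CCNA2 and CDC25C was not tested.

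Among the 7 genes of the spindle checkpoint and the anaphase-promoting complex (CDC20, BUB1, BUB1B, MAD2L1, TTK, UBE2C and PTTG1), MAD2L1 rose with both constructs. MAD2L1 (ENSG00000164109, chromosome 4, 120055608 to 120067074, minus strand) encodes MAD2, the checkpoint protein that unattached kinetochores convert into the form that captures CDC20. Its levels were 42.2, 37.7 and 39.3 CPM in MX, 54.4, 54.9 and 53.7 CPM with YAP1, and 55.6, 55.3 and 74.4 CPM with YAP1-S127A. All 6 construct libraries lay above all 3 MX libraries, and YAP1-S127A replicate 3 stood above the rest. Against MX, MAD2L1 was 1.37-fold higher with YAP1 (95% interval 1.14 to 1.64, log2 0.45, SE 0.12, adjusted p = 0.0320 in edgeR's quasi-likelihood test) and 1.55-fold higher with YAP1-S127A (1.30 to 1.86, log2 0.64, SE 0.12, adjusted p = 0.00115). Between the constructs MAD2L1 differed by 0.19 on the log2 scale, which was not called (adjusted p = 0.591, edgeR's quasi-likelihood test).

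The call of MAD2L1 in YAP1 against MX was near the threshold and needed all 6 libraries but MX replicate 1. Its log2 fold change stayed between 0.42 and 0.46 without any of the other 5, with edgeR's adjusted p of 0.0929 without MX replicate 2, 0.106 without MX replicate 3, and 0.0818, 0.112 and 0.0991 without YAP1 replicates 1, 2 and 3. In YAP1-S127A against MX it passed in every fit without 1 library, and without YAP1-S127A replicate 3 its log2 fold change was 0.49 (edgeR's adjusted p = 0.0135). With mitochondrial share as a covariate the 2 log2 fold changes were 0.44 and 0.59 (edgeR's adjusted p = 0.0508 and 0.0533), and with YAP1-S127A reduced to replicate 2, the library of lowest mitochondrial share in that group, it was 0.47 (adjusted p = 0.0936).

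The other checkpoint genes did not move with MAD2L1 past the test. UBE2C (ENSG00000175063, chromosome 20, 45812576 to 45816957, plus strand) was at 52.6, 63.1 and 67.4 CPM in MX, 65.8, 54.4 and 51.0 CPM with YAP1 and 54.8, 70.2 and 51.5 CPM with YAP1-S127A. Its groups overlapped, and its fold change was 0.936 with YAP1 (95% interval 0.765 to 1.14) and 0.964 with YAP1-S127A (0.788 to 1.18). The checkpoint kinases BUB1 and TTK had log2 fold changes of 0.15 and 0.17 with YAP1 and 0.15 and 0.15 with YAP1-S127A. BUB1B (BUBR1, the other inhibitor of the complex beside MAD2) stood at -0.01 and -0.08. CDC20, the protein that MAD2 captures, had log2 fold changes of 0.15 and 0.12. PTTG1, whose product holds separase inactive, had -0.25 with YAP1 and -0.18 with YAP1-S127A, neither called (adjusted p = 0.328 and 0.383 in edgeR's quasi-likelihood test).

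None of the 5 kinetochore and centromere genes (NDC80, NUF2, CENPA, CENPE and CENPF) was called. NUF2 (ENSG00000143228, chromosome 1, 163266576 to 163355764, plus strand), a subunit of the NDC80 complex that grips microtubules, was at 33.9, 38.1 and 33.5 CPM in MX, 36.1, 39.2 and 36.6 CPM with YAP1, and 38.1, 37.4 and 44.9 CPM with YAP1-S127A. Its groups overlapped, with log2 fold changes of 0.09 and 0.19 against MX. NUF2 shares its position with RGS5 on the opposite strand, which had 17856 counts against 6629 and fell by 1.60 with YAP1 and by 1.77 with YAP1-S127A on the log2 scale. No source used here states whether counting used strand, and the part of RGS5 in the counts of NUF2 was not tested.

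CENPF, a large kinetochore protein of late G2, was singled out after its values were seen. It was at 142, 114 and 107 CPM in MX, 115, 106 and 97.1 CPM with YAP1 and 93.4, 104 and 93.8 CPM with YAP1-S127A. The YAP1-S127A libraries all lay below the MX libraries, by a log2 fold change of -0.32 that was not called (adjusted p = 0.0850, edgeR's quasi-likelihood test). CENPA, the histone H3 variant that marks centromeres, had a log2 fold change of 0.38 with YAP1-S127A that was not called either (adjusted p = 0.0983, edgeR's quasi-likelihood test), and its groups overlapped, with MX replicate 1 lowest at 13.1 CPM. CENPA overlaps SLC35F6 on the same strand, which had 18081 counts against 3261, so that how reads were divided between them matters for CENPA and cannot be checked here. NDC80 had a log2 fold change of -0.01 with YAP1 and -0.19 with YAP1-S127A. The kinetochore motor CENPE had -0.03 and 0.06.

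The 6 spindle genes (KIF11, KIF2C, TPX2, HMMR, NUSAP1 and DLGAP5) had no call. TPX2 (ENSG00000088325, chromosome 20, 31739271 to 31801805, plus strand), which activates Aurora A on the spindle, was at 93.9, 83.4 and 101 CPM in MX, 109.6, 88.6 and 79.9 CPM with YAP1 and 92.4, 95.6 and 76.5 CPM with YAP1-S127A. Its groups overlapped fully, with fold changes of 0.998 (95% interval 0.824 to 1.21) and 0.950 (0.784 to 1.15) against MX. HMMR, which encodes a spindle-binding protein also known as a hyaluronan receptor, came nearest to a call and was singled out after its values were seen. It was at 33.7, 32.3 and 36.1 CPM in MX, 31.2, 44.7 and 40.5 CPM with YAP1 and 44.2, 38.6 and 51.4 CPM with YAP1-S127A. The YAP1-S127A libraries of HMMR all lay above MX, with a log2 fold change of 0.39 (adjusted p = 0.0559, edgeR's quasi-likelihood test). In 5 of 22 alternative fits HMMR was called, while with mitochondrial share as a covariate its log2 fold change was 0.19 (edgeR's adjusted p = 0.650). The kinesin KIF11, which pushes spindle poles apart, had log2 fold changes of -0.05 and -0.19, and the microtubule-depolymerising kinesin KIF2C had 0.07 and -0.03. DLGAP5, which stabilises kinetochore fibres, had -0.01 and -0.19. NUSAP1 had only 608 counts in all, so that its interval with YAP1-S127A ran from 0.755-fold to 1.49-fold.

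In the midzone and cytokinesis group of 5 genes (KIF20A, KIF23, PRC1, ANLN and BIRC5), ANLN and BIRC5 rose with YAP1-S127A. ANLN (ENSG00000011426, chromosome 7, 36389806 to 36453791, plus strand) encodes anillin, which links actin, myosin and RHOA in the cleavage furrow. It was at 79.1, 56.8 and 68.8 CPM in MX, 89.9, 85.5 and 85.4 CPM with YAP1, and 86.7, 91.0 and 97.3 CPM with YAP1-S127A. All 6 construct libraries lay above all 3 MX libraries, with the lowest in MX replicate 2. KIAA0895, which overlaps ANLN on the opposite strand, had 2167 counts against 14581 and log2 fold changes of 0.36 with YAP1 and 0.41 with YAP1-S127A, neither called, and its part in the result on ANLN was not tested. ANLN was 1.34-fold higher with YAP1-S127A (95% interval 1.12 to 1.60, log2 0.43, SE 0.12, adjusted p = 0.0194 in edgeR's quasi-likelihood test), while its 1.27-fold difference with YAP1 (1.07 to 1.52) was not called (adjusted p = 0.101). Between the constructs ANLN differed by 0.08 on the log2 scale (edgeR's adjusted p = 0.866).

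The call of ANLN rested on more than 1 library. It was lost without MX replicate 2 (log2 fold change 0.31, edgeR's adjusted p = 0.0877), without MX replicate 3 (0.42, adjusted p = 0.0580) and without YAP1-S127A replicate 3 (0.39, adjusted p = 0.0842). It was also lost with mitochondrial share as a covariate (0.48, adjusted p = 0.119) and with YAP1-S127A replicate 2 alone (0.41, adjusted p = 0.213). Without MX replicate 1 ANLN was called with YAP1 as well, at a log2 fold change of 0.46 (edgeR's adjusted p = 0.0101).

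BIRC5 (ENSG00000089685, chromosome 17, 78214186 to 78225636, plus strand) encodes survivin, the subunit that brings the chromosome passenger complex with Aurora B to the centromere and then the midzone, and it is also known as an inhibitor of apoptosis. It was at 119.9, 163 and 163 CPM in MX, 165, 170.3 and 179 CPM with YAP1, and 179, 229.8 and 189 CPM with YAP1-S127A. No construct library was below an MX library, although YAP1 replicate 1 exceeded MX replicates 2 and 3 only slightly. MX replicate 1 was the lowest library and YAP1-S127A replicate 2 the highest. BIRC5 was 1.34-fold higher with YAP1-S127A (95% interval 1.11 to 1.63, log2 0.42, SE 0.13, adjusted p = 0.0314 in edgeR's quasi-likelihood test), and its 1.15-fold difference with YAP1 (0.951 to 1.40) was not called (adjusted p = 0.436).

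The call of BIRC5 in YAP1-S127A against MX was lost without MX replicate 1 (log2 fold change 0.28, edgeR's adjusted p = 0.0934), YAP1 replicate 2 (0.42, adjusted p = 0.0529), YAP1-S127A replicate 2 (0.31, adjusted p = 0.175) or YAP1-S127A replicate 3 (0.47, adjusted p = 0.0571). It was kept with mitochondrial share as a covariate (0.63, adjusted p = 0.0348) and with YAP1-S127A replicate 2 alone (0.62, adjusted p = 0.0471). Chromosome 17, which holds BIRC5, had a median log2 fold change of -0.10 over its tested genes in that comparison, and BIRC5 stood at 0.52 once chromosome-wide shifts were removed (edgeR's adjusted p = 0.00697). The medians of chromosome 4 with MAD2L1 and chromosome 7 with ANLN were 0.01 and 0.07. With chromosome-wide shifts removed MAD2L1 stood at 0.62 and ANLN at 0.37 (edgeR's adjusted p = 0.000801 and 0.0340).

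**Figure D2:**
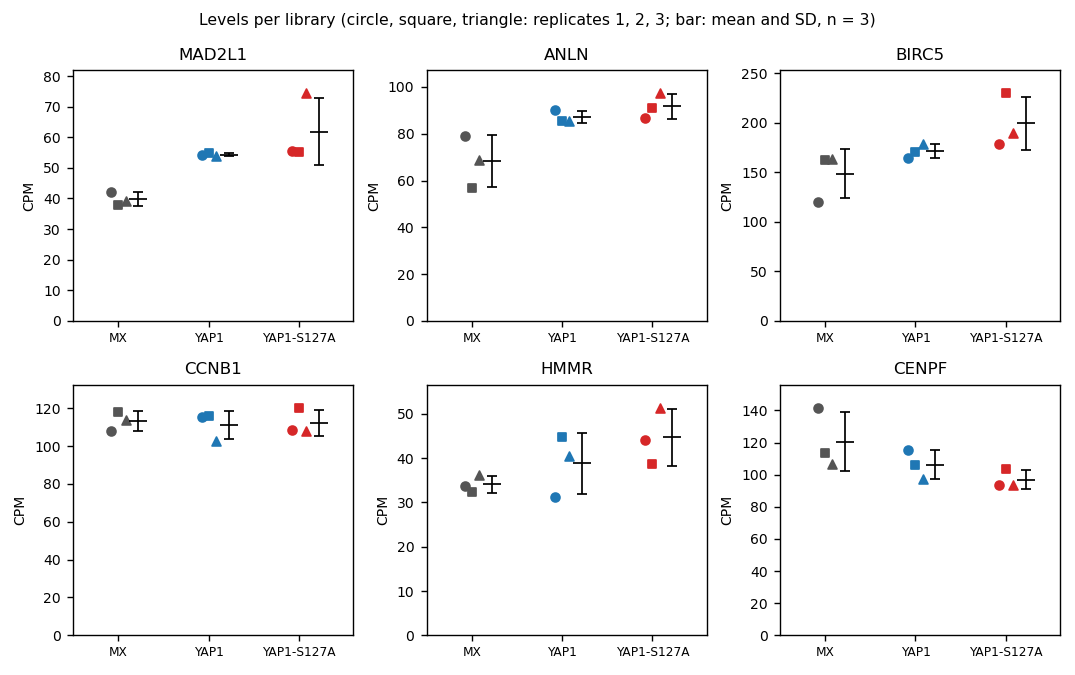
CPM in each library for the 3 called genes MAD2L1, ANLN and BIRC5, for the steady gene CCNB1, and for HMMR and CENPF, with circles, squares and triangles for replicates 1, 2 and 3 and a bar for the mean and SD (n = 3). MAD2L1 and ANLN lie above MX in all 6 construct libraries, and CCNB1 stays between 103 and 120.3 CPM in all 9.

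Among the other midzone genes, KIF20A and KIF23 did not rise with ANLN and BIRC5. KIF20A, a kinesin of the midzone, had log2 fold changes of -0.18 and -0.23 against MX, and its YAP1 libraries lay below all MX libraries. KIF20A overlaps BRD8 and CDC23 on the opposite strand, with 8914 and 7318 counts against 6121, and their part was not tested. KIF23, the motor of the centralspindlin complex, had 0.05 and 0.14. PRC1, which crosslinks midzone microtubules, was at 0.363 to 0.827 CPM, too low to compare, with a 95% interval from 0.499-fold to 1.92-fold for YAP1-S127A against MX.

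The 2 remaining genes act on chromatin and transcription. TOP2A (ENSG00000131747, chromosome 17, 40388516 to 40417950, minus strand), the topoisomerase that untangles sister chromatids, was at 148, 121 and 148 CPM in MX, 142, 124 and 130.0 CPM with YAP1 and 114, 135 and 117 CPM with YAP1-S127A. Its groups overlapped, with fold changes of 0.949 (95% interval 0.799 to 1.13) and 0.881 (0.741 to 1.05). FOXM1, the transcription factor of the late cell cycle program, had log2 fold changes of 0.02 and 0.13 and was not called. FOXM1 overlaps RHNO1 on the opposite strand, which had 10476 counts against 12099 and fell by 0.37 and 0.33 on the log2 scale with the constructs.

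In YAP1 against MX, MAD2L1 was 1 of 35 genes called (2.86%), beside 6.81% of all tested genes in either direction and 3.23% higher. At an unadjusted p under 0.05 there were 3 of the 35, beside 3063 of all 15492 genes. The libraries of the groups did not overlap for 6 of the 35 genes, CCNA2, MAD2L1, TTK, ANLN and BIRC5 higher and KIF20A lower, beside 24.1% of all tested genes. The median log2 fold change of the 35 was 0.02, beside -0.00 for all tested genes, and values ran from -0.25 (PTTG1) to 0.45 (MAD2L1). The 95% interval lay inside 1.5-fold either way for 32 of the 35 genes, all but MAD2L1, ANLN and PRC1, beside 54.0% of all tested genes.

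In YAP1-S127A against MX, 3 of 35 genes were called (8.57%), all higher, beside 18.4% of all tested genes in either direction and 9.53% higher. At an unadjusted p under 0.05 there were 7 of the 35, beside 4851 of all 15492 genes. The groups did not overlap for 7 of the 35, CCNA2, CDK1, MAD2L1, HMMR, ANLN and BIRC5 higher and CENPF lower, beside 32.6% of all tested genes. The median log2 fold change was 0.07, beside -0.00 for all tested genes, with a range from -0.32 (CENPF) to 0.64 (MAD2L1). The interval lay inside 1.5-fold for 29 of the 35, all but MAD2L1, ANLN, BIRC5, CENPA, HMMR and PRC1, beside 45.5% of all tested genes. Scaling by total counts in place of TMM moved the median of all tested genes to -0.28 in this comparison and that of the 35 to -0.21. Under it none of MAD2L1, ANLN and BIRC5 was called, and 8 others were called lower: AURKB, PTTG1, NDC80, CENPF, KIF11, DLGAP5, KIF20A and TOP2A. The directions above are therefore relative to the typical gene.

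In YAP1-S127A against YAP1, edgeR's quasi-likelihood test called 0 of 35 genes, with 0 at an unadjusted p under 0.05 beside 1903 of all 15492 genes, and DESeq2 and limma-voom called 0 as well. Among all tested genes 1.97% were called, 1.13% higher. The groups did not overlap for 2 of the 35, CDK1 and MAD2L1, both higher with YAP1-S127A, beside 19.6% of all tested genes. The median log2 fold change was 0.00 with a range from -0.21 to 0.22, and the interval lay inside 1.5-fold for 33 of the 35, all but NUSAP1 and PRC1, beside 57.9% of all tested genes. With PRC1 set aside, the 95% intervals of the other 34 genes reached at most 1.43-fold lower and 1.57-fold higher. For those 34 genes the limits were 1.47-fold lower and 1.64-fold higher with YAP1 against MX, and 1.49-fold lower and 1.86-fold higher with YAP1-S127A against MX.

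**Figure D3:**
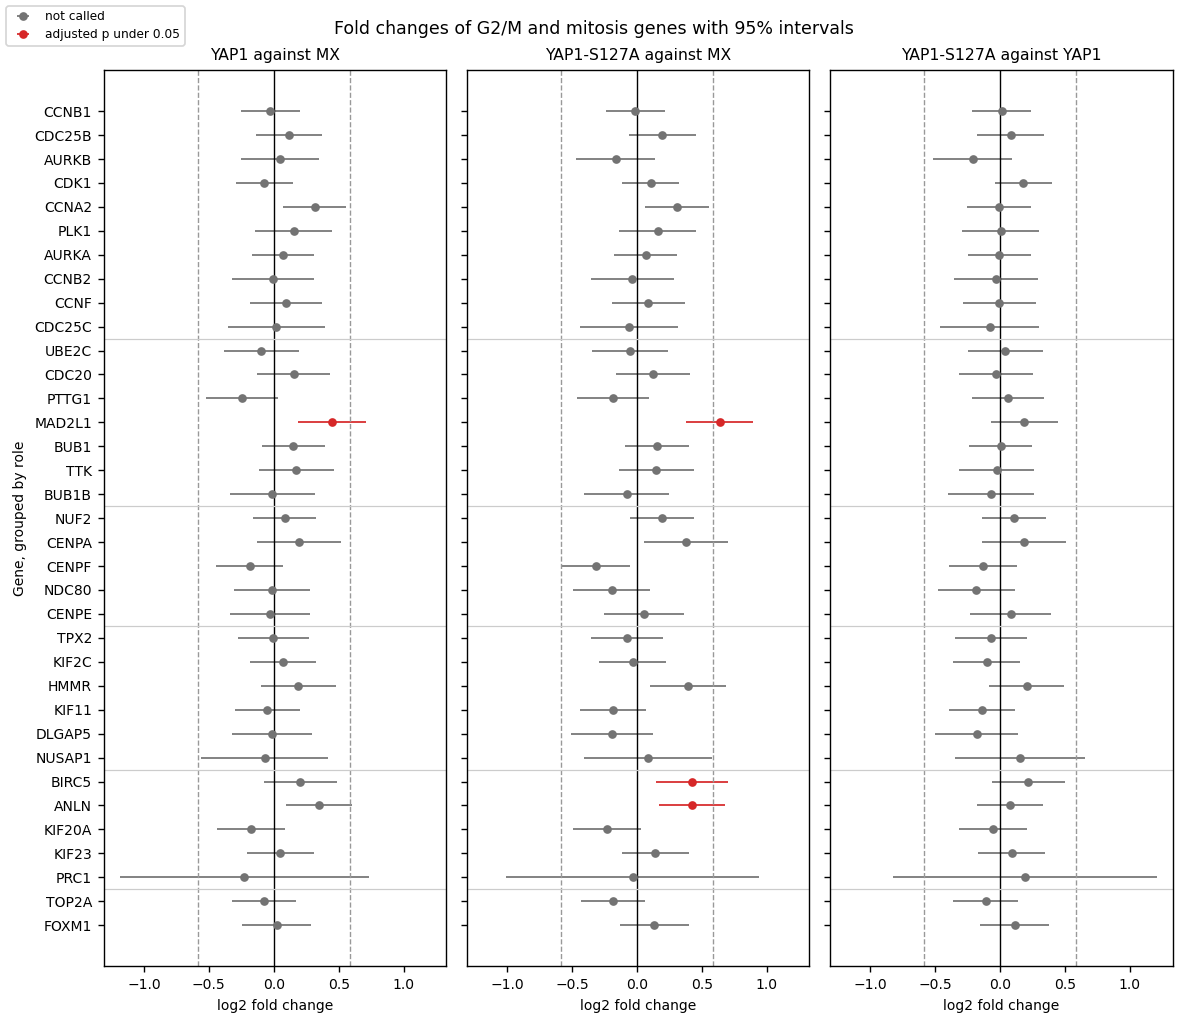
Log2 fold change of each of the 35 genes with its 95% interval in the 3 comparisons, grouped by role, with called genes in red and dashed lines at 1.5-fold. MAD2L1 is red in both comparisons against MX, ANLN and BIRC5 only in YAP1-S127A against MX, no gene is red in YAP1-S127A against YAP1, and the wide interval near the bottom is that of PRC1.

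Summed over the 35 genes, the level was 1816 ± 81.2 CPM (SD, n = 3) in the MX libraries, 1883 ± 87.9 CPM in those with YAP1 and 1918 ± 119 CPM in those with YAP1-S127A. Of the counts outside the mitochondrial genome the set took 0.207% ± 0.012 in MX, 0.211% ± 0.011 with YAP1 and 0.214% ± 0.008 with YAP1-S127A. The groups overlapped on both measures. Single libraries differed more than groups did. The median deviation of the 35 genes from their own means was 0.10 in YAP1 replicate 1 and 0.11 in YAP1-S127A replicate 2, and -0.08 in both MX replicate 2 and YAP1-S127A replicate 3, on the log2 scale. In YAP1 replicate 1 and in YAP1-S127A replicate 2, 28 of the 35 genes were above their own mean. In MX replicate 2 and in YAP1-S127A replicate 3 only 11 were.

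The deviations in a library ran with gene length in some libraries. Across the 35 genes, Spearman's rho between length and deviation was -0.63 in MX replicate 2, with long genes low, and 0.49 in YAP1 replicate 3, with long genes high. Over all tested genes rho was -0.26 and 0.13 in these libraries. In the other 7 libraries rho over the 35 genes lay between -0.34 and 0.39. Between fold change and length rho was 0.00 when YAP1 was compared with MX, 0.07 when YAP1-S127A was, and 0.07 between the constructs. These are descriptions across genes, which are not independent replicates and share the libraries. The part of gene length in the calls of MAD2L1, ANLN and BIRC5 was not tested.

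**Figure D4:**
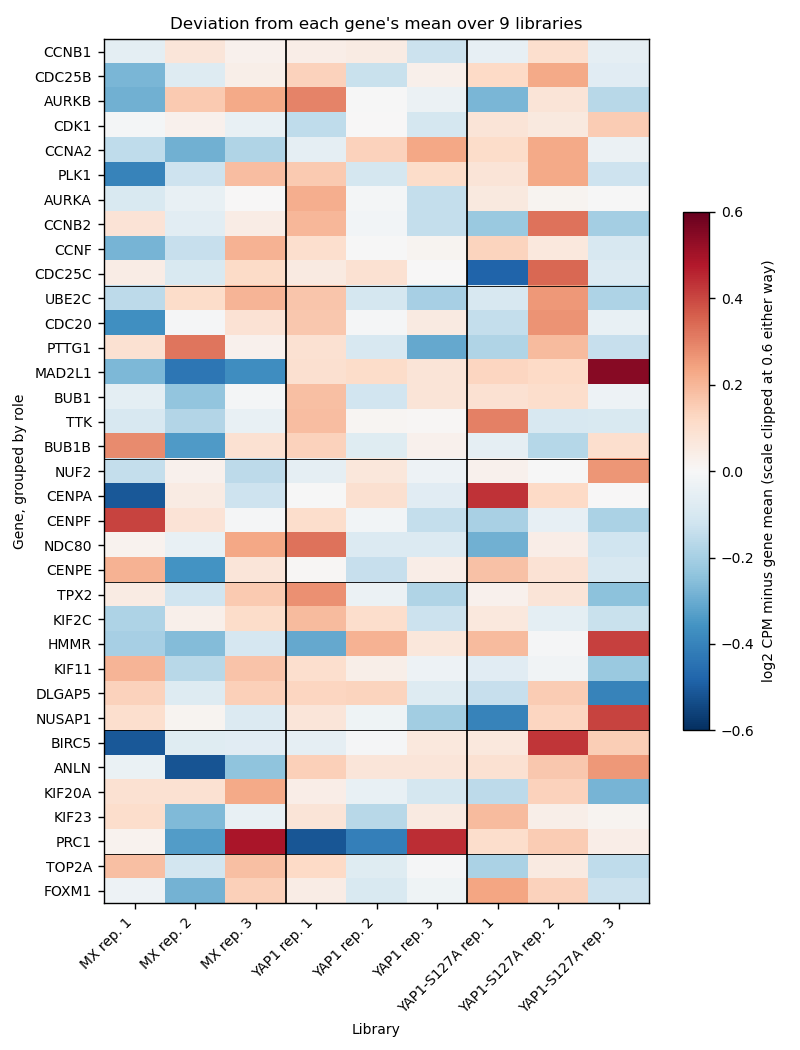
Deviation of each of the 35 genes from its own mean over 9 libraries, in log2 CPM, with genes in rows by role and libraries in columns by group. YAP1 replicate 1 and YAP1-S127A replicate 2 are mostly red, with 28 of 35 genes above their mean, MX replicate 2 and YAP1-S127A replicate 3 are mostly blue, and the row of MAD2L1 is blue in all of MX and red elsewhere.

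Further genes of the same processes were drawn from 6 lists of 102 genes: brakes and switches of mitotic entry, DREAM and MuvB regulators, subunits of the anaphase-promoting complex, condensin with cohesin and separase, kinetochore partners, and spindle and cytokinesis partners. With YAP1 against MX, 2 of the 102 rose and none fell (1.96%, beside 6.81% of all tested genes called), and 10 passed an unadjusted p of 0.05, beside 3063 of all 15492. With YAP1-S127A against MX, 9 rose and 1 fell (9.80%, beside 18.4% of all tested genes), and 23 passed an unadjusted p of 0.05, beside 4851 of all 15492. The 2 comparisons had medians of 0.07 and 0.08 on the log2 scale over the 102. Between the constructs edgeR's quasi-likelihood test called 0, beside 1.97% of all tested genes, with 8 at an unadjusted p under 0.05 beside 1903 of all 15492, where DESeq2 called 1 and limma-voom 0. The condensin, cohesin and separase list (17 genes) and the kinetochore partners (19 genes) had no call in any comparison.

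Of the 24 spindle and cytokinesis partners, ECT2 and DEPDC1 rose with both constructs. Against MX 8.33% of this list were called with YAP1 and 20.8% with YAP1-S127A, beside 6.81% and 18.4% of all tested genes. ECT2 (ENSG00000114346), the exchange factor that activates RHOA at the equator where anillin binds it, was at 90.1, 77.7 and 83.4 CPM in MX, 108, 112 and 112 CPM with YAP1 and 144, 133 and 144 CPM with YAP1-S127A. The 3 groups of ECT2 did not overlap. Its log2 fold change was 0.40 with YAP1 (SE 0.11, adjusted p = 0.0276) and 0.74 with YAP1-S127A (SE 0.11, adjusted p = 6.33e-05) in edgeR's quasi-likelihood test. Between the constructs it was 0.34 (adjusted p = 0.125). ECT2 lies on chromosome 3, whose tested genes had medians of 0.05 and 0.07 against MX.

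DEPDC1 was at 21.1, 19.2 and 20.4 CPM in MX, 25.2, 29.5 and 29.9 CPM with YAP1 and 28.5, 31.5 and 34.99 CPM with YAP1-S127A. Its log2 fold change was 0.48 with YAP1 and 0.65 with YAP1-S127A (adjusted p = 0.0234 and 0.00105, edgeR's quasi-likelihood test), with all 6 construct libraries above MX. In YAP1 against MX both calls were lost without MX replicate 2 or 3 or without YAP1 replicate 2 or 3, and that of ECT2 also without YAP1 replicate 1, at adjusted p from 0.0507 to 0.125 in edgeR's test. With YAP1-S127A, ECT2 was called in all 22 alternatives and DEPDC1 in 21. With YAP1 against MX, ECT2 was called in 14 of the 22 and DEPDC1 in 17.

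Within the same list GAS2L3, a protein linking actin to microtubules at the midbody, rose by 0.57 with YAP1-S127A (adjusted p = 0.00986 in edgeR's quasi-likelihood test). CEP55, the midbody scaffold of abscission, rose by 0.31 (adjusted p = 0.0455), from 60.9, 59.6 and 59.5 CPM in MX to 76.9, 74.6 and 70.9 CPM, while the YAP1 libraries were at 61.4, 60.5 and 62.4 CPM. MKI67, the Ki-67 protein that coats mitotic chromosomes and a common marker of cycling cells, was the single gene that fell. It was at 149, 104 and 111 CPM in MX, 118, 93.5 and 103 CPM with YAP1 and 95.8, 96.9 and 83.5 CPM with YAP1-S127A, a log2 fold change of -0.40 (adjusted p = 0.0480 in edgeR's quasi-likelihood test). CEP55 and MKI67 were singled out after their values were seen. The call of CEP55 was lost without any single library except MX replicate 1 (edgeR's adjusted p up to 0.133), and that of MKI67 without any except MX replicate 2 and YAP1 replicate 1 (up to 0.207), with a log2 fold change of -0.24 without MX replicate 1. That of GAS2L3 was lost without YAP1-S127A replicate 3 (edgeR's adjusted p = 0.0806). Over all 22 alternatives GAS2L3 was called in 18, CEP55 in 9 and MKI67 in 10 with YAP1-S127A against MX.

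Of the 14 brakes and switches of mitotic entry, 3 rose with YAP1-S127A (21.4%), beside 18.4% of all tested genes called in either direction and 9.53% higher. GADD45A, a stress-induced protein that binds CDK1, was at 50.3, 52.3 and 47.8 CPM in MX, 68.3, 67.5 and 61.7 CPM with YAP1 and 88.2, 53.0 and 90.7 CPM with YAP1-S127A. Its log2 fold change with YAP1-S127A was 0.63 (adjusted p = 0.00745, edgeR's quasi-likelihood test), and YAP1-S127A replicate 2, the library of that group with 7.40% mitochondrial counts, lay just above MX. FBXO5, an inhibitor of the anaphase-promoting complex, rose by 0.48 and CKS2, a CDK1 subunit whose groups overlapped, by 0.49 (adjusted p = 0.0205 and 0.0263 in edgeR's test). With YAP1-S127A replicate 2 alone the log2 fold changes were 0.08 for GADD45A, 0.26 for FBXO5 and 0.50 for CKS2, and none was called. GADD45A was also lost without YAP1-S127A replicate 3 (adjusted p = 0.0616 in edgeR's test), FBXO5 without MX replicate 3 (0.0735), YAP1-S127A replicate 1 (0.0691) or YAP1-S127A replicate 3 (0.101). CKS2 was lost without MX replicate 1 (0.0831), MX replicate 3 (0.0606), YAP1-S127A replicate 2 (0.0676) or YAP1-S127A replicate 3 (0.166), each an adjusted p from edgeR. Over all 22 alternatives GADD45A was called in 18, FBXO5 in 15 and CKS2 in 14.

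Of the 14 DREAM and MuvB regulators, 1 rose with YAP1-S127A, E2F1 (7.14%, beside 18.4% of all tested genes called). E2F1, an activator of S phase genes, was at 31.1, 40.8 and 43.3 CPM in MX, 45.1, 50.9 and 53.9 CPM with YAP1 and 56.4, 62.5 and 59.7 CPM with YAP1-S127A. The 3 groups of E2F1 did not overlap, and its log2 fold change was 0.64 with YAP1-S127A (adjusted p = 0.00166) and 0.38 with YAP1 (adjusted p = 0.0866, not called) in edgeR's quasi-likelihood test. In the list of the anaphase-promoting complex, 1 of 14 genes rose with YAP1-S127A (7.14%, beside 18.4% of all tested genes called). It was the small subunit ANAPC13, which rose by 0.44 (adjusted p = 0.0137 in edgeR's test). The call of ANAPC13 was lost without MX replicate 3 or YAP1-S127A replicate 1 (adjusted p = 0.0510 and 0.0744 in edgeR's test). Over all 22 alternatives ANAPC13 was called in 17 and E2F1 in 21 with YAP1-S127A against MX.

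For comparison, 28 genes of G1/S and DNA replication held 1 call with YAP1, the replication helicase subunit GINS1 (log2 fold change 0.45, adjusted p = 0.0375, edgeR's quasi-likelihood test), which is 3.57% of the list beside 6.81% of all tested genes. That call was lost without any single MX or YAP1 library except MX replicate 2, at edgeR's adjusted p from 0.0758 to 0.149 for GINS1. Over all 22 alternatives GINS1 was called with YAP1 in 12. With YAP1-S127A against MX edgeR called 0 of the 28, beside 18.4% of all tested genes. At an unadjusted p under 0.05 there were 4, beside 4851 of all 15492 genes, and DESeq2 and limma-voom called 0. The medians of the 28 were 0.09 with YAP1 and -0.03 with YAP1-S127A against MX, beside 0.02 and 0.07 for the 35 genes of G2/M and mitosis. For YAP1-S127A against YAP1 the medians were -0.16 for the 28 and 0.00 for the 35. In that comparison 24 of the 28 and 17 of the 35 were below 0, beside 7599 of all 15492 genes. Neither list held a call there, beside 1.97% of all tested genes. Whether the lists differ was not tested.

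**Figure D5:**
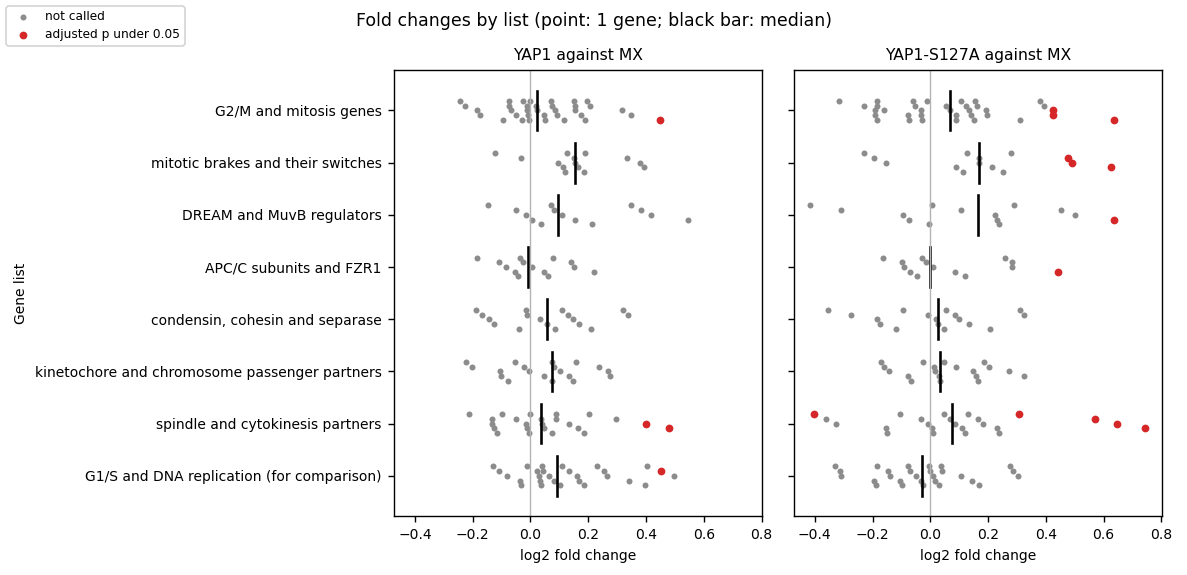
Log2 fold changes of the 35 genes, of the 6 partner lists and of 28 G1/S genes, 1 point per gene, with called genes in red and a black bar at each median, for YAP1 against MX and YAP1-S127A against MX. The medians lie between -0.03 and 0.17, and the red points to the right in the spindle and cytokinesis list are ECT2 and DEPDC1 in both panels, joined on the right-hand panel by GAS2L3 and CEP55, with MKI67 to the left of 0.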

How the data were processed

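Deposited values were raw counts per gene and library, whole numbers, with a deposited gene length in bases that was used only to express levels per kilobase. Per the labels' protocols, libraries were made with a stranded mRNA kit. The submitters' processing notes list Salmon 1.9.0, HISAT2 and Cufflinks beside build GRCm39, without roles. The labels name the mouse, but the identifiers are human Ensembl genes, so that build does not describe this table. The human build, annotation, counting program and strand handling were not given in the sources used here, and positions are those of the table.

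From the counts, filterByExpr of edgeR 4.0.16 in R 4.3.3 kept 15492 of 58735 genes. All 9 libraries entered 1 fit after TMM scaling, with robust quasi-likelihood dispersions and no term but group, and each of 3 two-sided contrasts was adjusted by Benjamini-Hochberg over the tested genes. Standard errors are the absolute log2 fold change over the square root of F, and 95% intervals use the fit's degrees of freedom. Deviations are log2 CPM with a prior count of 2. The steps were tested on simulated counts. Alternatives were RLE and total-count scaling, no and stricter filters, protein-coding genes only, no mitochondrial genes, DESeq2 1.42.0, limma-voom (limma 3.58.1), the compared groups alone, the replicate number as a block, mitochondrial share as covariate and each library left out. Removing chromosome-wide shifts, and keeping only replicate 2 of YAP1-S127A, were added after seeing the data. Floors in counts cover counting error only, while the 95% intervals of fold changes also cover the spread of libraries within groups.

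The members and lists were chosen with earlier results of these data known. All 35 members are accounted for. Values in every library are given for members called in any comparison and for the member of each role with the highest level per kilobase, and in the other lists up to 3 called genes with the smallest p are named. Genes named beyond this are marked as chosen after their values were seen. Promoter and protein sequences were not used here.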

Additional observations from a re-analysis of the deposited data

How the results depend on the processing

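Over 22 alternatives none of the 35 genes was called in the opposite direction to a call of its own, and YAP1-S127A against YAP1 kept 0 of 35 called in all 22. In YAP1 against MX the set had 1 gene called, and 0 with total-count scaling or with mitochondrial share as covariate. In YAP1-S127A against MX the set had 3 called, 8 with total-count scaling (all lower), 1 with mitochondrial share as covariate (BIRC5) and 1 with YAP1-S127A reduced to replicate 2 (BIRC5), an arm of 1 library assumed to vary like the other groups. BIRC5 also lost its call with only the groups compared (edgeR's adjusted p = 0.0638). Without 1 library at a time the set had 0 to 2 genes called in YAP1 against MX, 1 to 4 in YAP1-S127A against MX and 0 between the constructs, and of all tested genes 601 to 1423, 1847 to 3079 and 126 to 465 were called. The 1 was without YAP1-S127A replicate 3, where MAD2L1 remained, and the 2 was without MX replicate 1. Counts over all genes were 2845 in YAP1-S127A against MX, but 4447 with total-count scaling (611 higher and 3836 lower, against 1476 and 1369), 1405 with mitochondrial share as covariate and 1278 with YAP1-S127A replicate 2 alone. In YAP1-S127A against YAP1 they were 305, but 616 with total-count scaling, 520 with no filter, 475 with DESeq2, 478 with only the groups compared and 151 with YAP1-S127A replicate 2 alone.

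Replicate numbers were checked for pairing. The deviations of same-numbered libraries correlated at -0.18 to 0.20. Libraries of different numbers were not compared, so whether a replicate number marks a shared culture or batch was not tested. With the replicate block 1428, 3426 and 472 genes were called in the 3 comparisons, and 1, 5 and 0 of the 35, where HMMR (adjusted p = 0.0302) and CENPF joined in YAP1-S127A against MX. The median log2 fold change of the 35 ranged over the alternatives from -0.05 to 0.08, -0.21 to 0.14 and -0.20 to 0.08 in the 3 comparisons. The cause of these changes was not tested. Low counts limit PRC1 and NUSAP1, with 106 and 608 in all, and the cause of these low counts was not tested.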
